A study of Mus musculus with 2 samples.

Results

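Dendritic cells that carried transcripts of Xcr1 and Clec9a were set against dendritic cells that carried Sirpa, within each of 6 hashtagged biological replicates of 1 single-cell RNA sequencing experiment. The cells had been sorted as CD3-B220-CD11c+MHC-II+ dendritic cells from mesenteric lymph nodes (mLN) and small-intestinal lamina propria (siLP) of untreated Gm38411-iCre-hCD2 reporter mice at 15 days of age, and both gates compared here carry that reporter. Per the labels, each tissue gave 3 biological replicates and a separate antibody tag identifies every replicate (hashtags 2, 4, 5, 6, 8 and 9). The tissue behind a hashtag is not named, so no hashtag was given one and all comparisons were made within hashtags. A cell entered the cDC1 gate with at least 3 unique molecular identifiers (UMIs, counted RNA molecules) of Xcr1 and Clec9a together and more of these than of Sirpa. It entered the cDC2 gate with at least 2 Sirpa UMIs and 0 of Xcr1 and Clec9a. Both gates allowed at most 1 UMI each of Fscn1, Prdm16 and Cd3e and fewer than 10 of C1qa, C1qb and C1qc together. The members were thus selected on measured UMIs of Xcr1, Clec9a, Sirpa and the other genes named, so the levels of the gate genes are no finding. Of 15480 cells with 1 hashtag, at least 500 genes and at most 10% mitochondrial UMIs, 2127 fell in the cDC1 gate and 4812 in the cDC2 gate, together 6939.

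Classical dendritic cells fall into a pair of lineages. cDC1 depend on the transcription factors Irf8, Batf3 and Id2, take up dying cells, present their antigens to CD8 T cells by cross-presentation, and carry Xcr1, Clec9a, Cadm1 and Tlr3. cDC2 are more mixed, depend to varying degrees on Irf4, Klf4, Notch2 and Zeb2, carry Sirpa and Itgam (CD11b), and present antigen mainly to CD4 T cells. In the intestine both lineages express Itgae (CD103) in part and travel to the mesenteric lymph node with the help of Ccr7.

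Of the filtered cells, 8541 (55.2%) fell in neither gate. Among these, 2282 were left out by Fscn1, Prdm16, Cd3e or C1q, 2404 had no UMI of the 3 gate genes, 2107 had a single Sirpa UMI, 509 had 1 or 2 UMIs of Xcr1 and Clec9a, and 1239 had UMIs of both sides. The 1796 cDC1 gate cells with 0 Sirpa UMIs outnumbered the 331 with at least 1. Cells just inside the cDC1 gate (3 to 4 UMIs of Xcr1 and Clec9a, 251 cells) held Irf8 at 1054 counts per 1000000 UMIs (CPM), and cells just outside it (2 UMIs, 178 cells) at 647 CPM. At the edge of the cDC2 gate Irf8 lay at 24.3 CPM both inside (2 Sirpa UMIs, 1642 cells) and outside (1 Sirpa UMI, 2107 cells).

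The cDC1 gate held 239 to 559 cells per hashtag and the cDC2 gate 336 to 1700. For each cDC2 gate cell, hashtags 2, 4 and 5 gave 0.625, 0.575 and 0.848 cDC1 gate cells, while hashtags 6, 8 and 9 gave 0.531, 0.272 and 0.323. The level of these ratios depends on the UMI minima of the gates, and their difference between hashtags was not tested. The median cDC1 gate cell held 14630 ± 4112 UMIs and the median cDC2 gate cell 10045 ± 3435 (mean ± SD over 6 hashtags). The difference of 4585 UMIs was positive in 6 of 6 hashtags (exact two-sided sign-flip test, p = 0.03125, the smallest that 6 pairs allow). It averaged 4024 UMIs in hashtags 2, 4 and 5 and 5145 UMIs in hashtags 6, 8 and 9, where 3 pairs cannot go below p = 0.25 in an exact test. Depth is partly set by the gates, which ask for a minimum of UMIs.

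**Figure D1:**
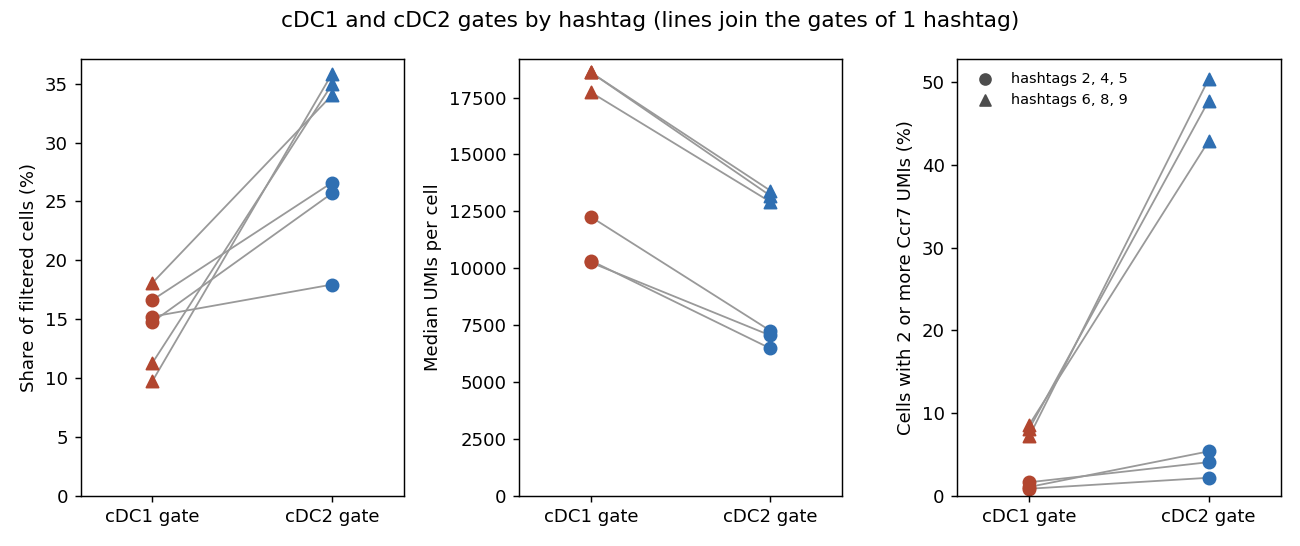
Share of filtered cells in each gate (left), median UMIs per cell (middle) and percentage of gate cells with 2 or more Ccr7 UMIs (right); each point is 1 hashtag, lines join the gates of a hashtag, and circles and triangles mark hashtags 2, 4, 5 and 6, 8, 9. Median UMIs were higher in the cDC1 gate in 6 of 6 hashtags, and the Ccr7 share reached 42.9% to 50.4% in the cDC2 gate of hashtags 6, 8 and 9.

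Cells with 2 or more UMIs of Ccr7, the receptor that guides dendritic cells to lymph nodes, made up 0.837% to 8.56% of the cDC1 gate. In the cDC2 gate their share was 4.05%, 2.16% and 5.36% for hashtags 2, 4 and 5, but 50.4%, 47.8% and 42.9% for 6, 8 and 9. The share was lower in the cDC1 gate in 6 of 6 hashtags (exact two-sided sign-flip test, p = 0.03125). Cells with a UMI of the proliferation genes Mki67 or Top2a averaged 34.3% ± 3.39 in the cDC1 gate and 46.4% ± 15.5 in the cDC2 gate (SD, n = 6, exact sign-flip test, p = 0.156), with 62.6%, 63.3% and 54.4% in the cDC2 gate of hashtags 6, 8 and 9. These cell shares are read from raw UMIs, so they move with depth as well. The gates also select on UMIs of Xcr1, Clec9a, Sirpa and Fscn1, so these tests cannot separate lineage from that selection. In near-empty barcodes (100 UMIs or fewer), a measure of free RNA, Ccr7, Mki67 and Top2a lay at 270.2, 91.0 and 54.0 CPM, and the part of free RNA in the shares was not tested.

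The 10 macrophage markers summed to 94.9 to 205 CPM in the cDC1 libraries and 380 to 506 CPM in the cDC2 libraries, and 5 of the 6 that could be tested were lower in the cDC1 gate. The 9 markers of mature dendritic cells summed to 139 to 183 CPM in the cDC1 libraries and 525 to 705 CPM in the cDC2 libraries, with 8 of 8 tested lower in the cDC1 gate. T or NK cell markers summed to 1.60 to 6.02 CPM in the cDC1 libraries and 3.66 to 30.8 CPM in the cDC2 libraries, with Nkg7, Gzma, Gzmb, Ncr1 and Klrb1c at 0 in the cDC1 libraries and Gzmb at 0 in the cDC2 libraries. Granulocyte or mast cell markers summed to 1.07 to 6.02 CPM in the cDC1 libraries and 15.7 to 24.3 CPM in the cDC2 libraries, with S100a8, S100a9 and Mcpt8 at 0 in both. Monocyte markers summed to 941 to 1266 CPM in the cDC1 libraries and 728 to 1472 CPM in the cDC2 libraries, most of it Plac8. For plasmacytoid dendritic cell markers the sums were 255 to 421 CPM in the cDC1 libraries and 219 to 537 CPM in the cDC2 libraries. B or plasma cell markers, with Ighm as the largest share, summed to 87.2 to 127 CPM in the cDC1 libraries and 51.3 to 94.5 CPM in the cDC2 libraries, and the gates overlapped for all 3 lists. Leaving out cells with C1q, Adgre1, Fcgr1 or Ly6c2 UMIs kept 75.5% of the calls made over all cells. Leaving out cells with 2 or more Ccr7 UMIs kept 92.9% and leaving out cells with a Mki67 or Top2a UMI 77.8%, and in none of these settings did a called gene change sign while called. The part of the other cell types was not tested.

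Counts were summed over the cells of each gate and hashtag into 12 libraries, and cDC1 was compared with cDC2 within hashtags by edgeR's quasi-likelihood test. The libraries held 2823459 to 10698050 UMIs in the cDC1 gate and 2826528 to 23320942 in the cDC2 gate. Of 10761 genes tested, 5182 (48.2%) passed at a Benjamini-Hochberg adjusted p below 0.05, 2495 higher in the cDC1 gate (23.2%) and 2687 lower (25.0%). The median log2 fold change of all genes tested was -0.0011, and each list's count is read against these shares. In such sums, fewer cells that express a gene and less of its RNA per cell cannot be told apart.

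The genes that set the gates are given as a description, with no test. Xcr1 (chr9:123852315-123862029, minus strand, GRCm38) encodes the receptor for the chemokine Xcl1. It lay at 330 to 343 CPM in the cDC1 libraries, and 0 UMIs in the cDC2 libraries are what the rule asks for. Clec9a (chr6:129408862-129424763, plus strand), a receptor for actin exposed on dead cells, lay at 414 to 580 CPM in the cDC1 libraries, with 0 UMIs in the cDC2 libraries by the same rule. Sirpa (chr2:129592835-129632228, plus strand), the receptor for CD47, lay at 11.2 to 18.0 CPM in the cDC1 libraries and 257 to 562 CPM in the cDC2 libraries. In the near-empty barcodes Xcr1, Clec9a and Sirpa lay at 61.3, 109 and 170 CPM, so some UMIs in any cell may come from other cells' RNA.

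**Figure D2:**
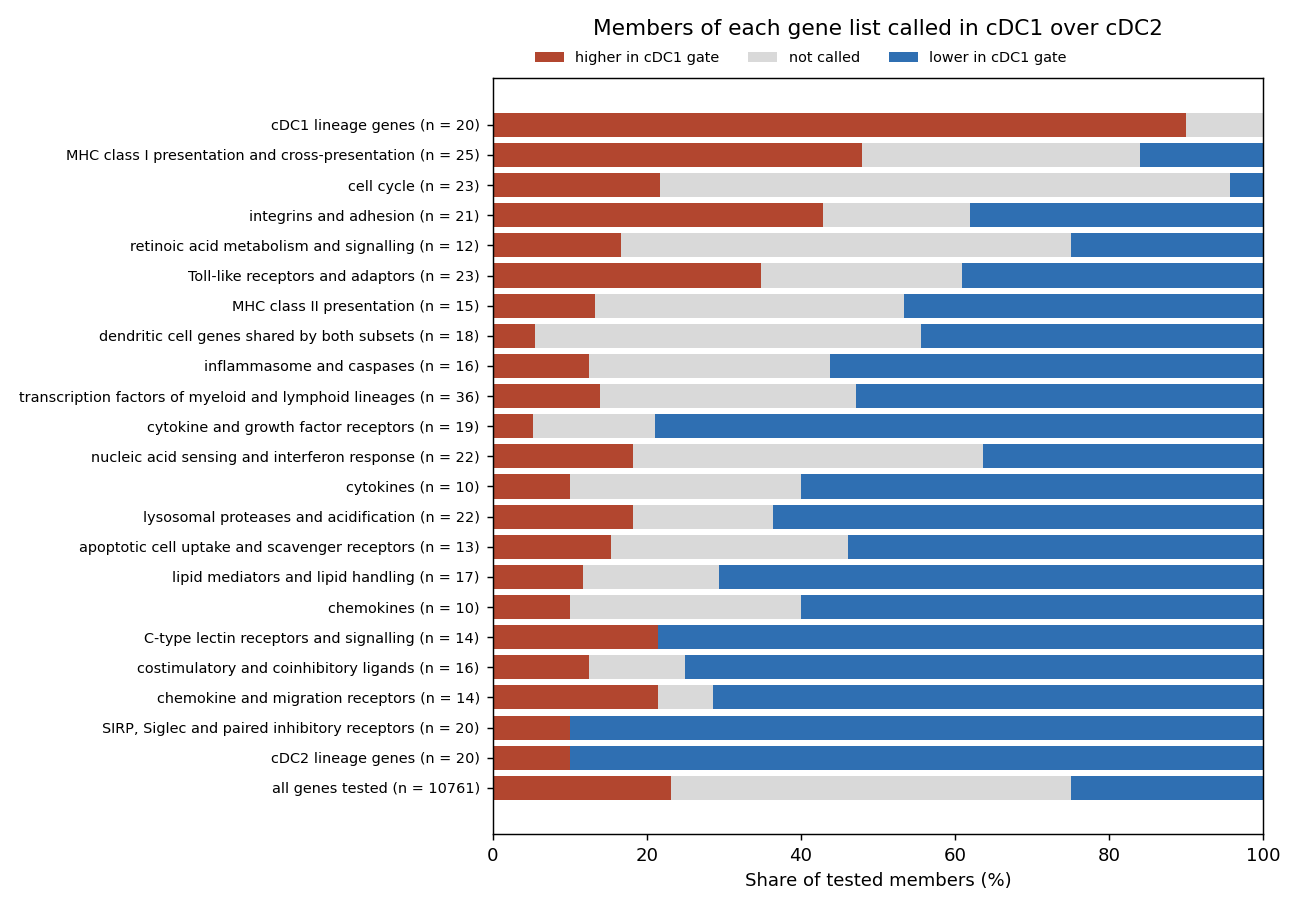
Share of the tested members of each gene list that were called higher in the cDC1 gate (red), not called (grey) or called lower in the cDC1 gate (blue), ordered by median log2 fold change, with the number tested in brackets, for lists with at least 10 tested. The bottom bar gives all 10761 genes tested, of which 23.2% were higher and 25.0% lower.

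Irf8 (chr8:120736358-120756694, plus strand), the factor that sets up the cDC1 lineage, was measured at 1576, 1535, 1483, 1135, 1110 and 1108 CPM in the cDC1 libraries of hashtags 2, 4, 5, 6, 8 and 9. The cDC2 libraries of the same hashtags held 36.1, 38.2, 40.0, 21.0, 18.4 and 18.8 CPM. The gates did not overlap, and the log2 fold change was 5.54 ± 0.09 (SE, edgeR adjusted p = 3.14e-08). Batf3, its partner, differed far less, at 120 to 208 CPM (median 155) in the cDC1 libraries and 77.6 to 146 CPM (median 105) in the cDC2 libraries. The ranges overlapped, yet Batf3 was higher in the cDC1 gate in 6 of 6 hashtags (log2 0.53 ± 0.07, edgeR adjusted p = 0.00063).

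Id2, an inhibitor of E proteins that cDC1 need, did not pass over the 6 hashtags (log2 0.32 ± 0.29, edgeR adjusted p = 0.407). Its values in hashtags 2, 4 and 5 were 902, 778 and 842 CPM in the cDC1 gate and 426, 341 and 537 CPM in the cDC2 gate. In hashtags 6, 8 and 9 they were 462, 397 and 451 CPM in the cDC1 gate and 523, 525 and 488 CPM in the cDC2 gate. The sign therefore turned between these sets of hashtags. Fitted apart, the log2 fold change was 1.10 ± 0.07 with hashtags 2, 4 and 5 (edgeR adjusted p = 6.08e-11) and -0.41 ± 0.06 with hashtags 6, 8 and 9 (edgeR adjusted p = 0.000386).

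Zeb2 and Irf4, factors tied to cDC2, were lower in the cDC1 gate. Zeb2 (chr2:44983632-45117395, minus strand), a repressor needed by part of the cDC2 lineage, lay at 20.1 to 47.8 CPM (median 29.2) in the cDC1 libraries and 462 to 692 CPM (median 497) in the cDC2 libraries (log2 -4.15 ± 0.18, edgeR adjusted p = 1.97e-06). Irf4 (chr13:30749226-30766976, plus strand) lay at 8.55 to 42.8 CPM (median 22.5) in the cDC1 libraries and 77.8 to 365 CPM (median 210) in the cDC2 libraries (log2 -3.06 ± 0.26, edgeR adjusted p = 3.82e-05). Neither gene's groups overlapped. Klf4 lay at 26.0 to 156 CPM (median 82.4) in the cDC1 libraries and 95.1 to 155 CPM (median 117) in the cDC2 libraries, which overlapped. Its log2 fold change of -0.68 ± 0.21 passed (edgeR adjusted p = 0.0278), but not without hashtag 4 (-0.57, edgeR adjusted p = 0.0757) or without hashtag 5 (-0.64, edgeR adjusted p = 0.0694). In hashtags 6, 8 and 9 alone Klf4 stood at -0.16 ± 0.06 (edgeR adjusted p = 0.0589). Flt3, the receptor for the growth factor that both lineages need, lay at 137 to 340 CPM in the cDC1 libraries and 111 to 309 CPM in the cDC2 libraries (log2 0.19 ± 0.07, edgeR adjusted p = 0.0605). Flt3 passed as higher without cells with 2 or more Ccr7 UMIs (0.21, edgeR adjusted p = 0.0267) and without cells with a Mki67 or Top2a UMI (0.24, edgeR adjusted p = 0.037). Zbtb46, a factor shared by classical dendritic cells, lay at 152 to 309 CPM in the cDC1 libraries and 142 to 326 CPM in the cDC2 libraries (log2 -0.05 ± 0.07, edgeR adjusted p = 0.573).

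**Figure D3:**
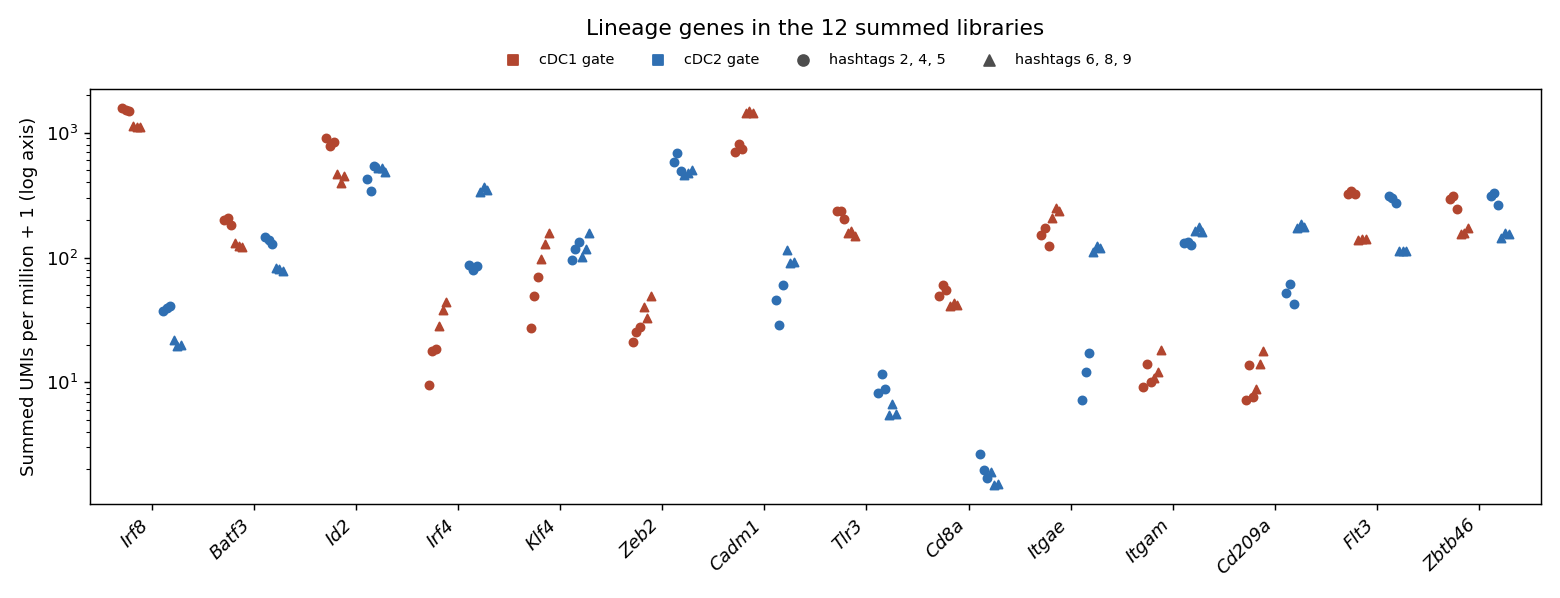
Level of 14 lineage genes in the 12 summed libraries, as CPM + 1 on a log axis, with the cDC1 gate (red) left of the cDC2 gate (blue) for each gene and circles and triangles for hashtags 2, 4, 5 and 6, 8, 9. Irf8, Cadm1, Tlr3 and Cd8a lie above, and Irf4, Zeb2, Itgam and Cd209a below, in all cDC1 libraries, while Id2, Klf4, Flt3 and Zbtb46 overlap between the gates.

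Of 20 genes known for the cDC1 lineage, all tested, 18 were higher in the cDC1 gate, 0 were lower and 2 did not pass (Id2 and Nfil3), with a median log2 fold change of 3.87. For 15 of them the gates' libraries did not overlap, against 16.7% of all genes tested. The largest differences were Gpr141b, an orphan receptor, at 72.6 to 157 CPM in the cDC1 libraries and 0.914 to 2.29 CPM in the cDC2 libraries (log2 6.05 ± 0.17, edgeR adjusted p = 2.65e-07), and Gcsam, a signalling adaptor, at 21.0 to 142 CPM in the cDC1 libraries and 0.343 to 1.94 CPM in the cDC2 libraries (5.97 ± 0.29, edgeR adjusted p = 3.14e-06). Cd8a, the coreceptor chain carried by lymphoid-resident cDC1, lay at 40.1 to 58.8 CPM in the cDC1 libraries and 0.507 to 1.64 CPM in the cDC2 libraries (5.73 ± 0.18, edgeR adjusted p = 3.82e-07). Cadm1, an adhesion molecule, lay at 706 to 1501 CPM in the cDC1 libraries and 27.9 to 115 CPM in the cDC2 libraries (3.95 ± 0.20, edgeR adjusted p = 3.48e-06). None of these 4 genes had overlapping groups.

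Itgae (CD103) showed how far the hashtags differed. In hashtags 2, 4 and 5 it lay at 152, 172 and 123 CPM in the cDC1 gate and 6.23, 11.0 and 16.3 CPM in the cDC2 gate. In hashtags 6, 8 and 9 it lay at 207, 248 and 233 CPM in the cDC1 gate and 110.5, 123 and 119 CPM in the cDC2 gate. Itgae was higher in the cDC1 gate of every hashtag, and the spread lay mostly in the cDC2 gate. The log2 fold change over 6 hashtags was 2.08 ± 0.61 (edgeR adjusted p = 0.0218), and 1.91 without hashtag 5 (edgeR adjusted p = 0.0568). Fitted apart it was 3.88 ± 0.17 in hashtags 2, 4 and 5 (edgeR adjusted p = 7.77e-14) and 0.78 ± 0.06 in hashtags 6, 8 and 9 (edgeR adjusted p = 3.21e-06).

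Of 21 genes listed for the cDC2 lineage, 20 were tested, and 18 of these were lower in the cDC1 gate and 2 higher (median log2 fold change -3.24). For 16 of the 20 the groups did not overlap. Clec4a4, the DCIR2 lectin, lay at 0.483 to 3.54 CPM in the cDC1 libraries and 7.12 to 93.4 CPM in the cDC2 libraries (log2 -4.30 ± 0.36, edgeR adjusted p = 4.02e-05). Itgam, the CD11b integrin chain, lay at 8.22 to 17.3 CPM in the cDC1 libraries and 125 to 176 CPM in the cDC2 libraries (-3.77 ± 0.16, edgeR adjusted p = 1.99e-06). Cd209a, a C-type lectin, lay at 6.25 to 16.8 CPM in the cDC1 libraries and 41.7 to 186 CPM in the cDC2 libraries (-3.44 ± 0.34, edgeR adjusted p = 9.14e-05). The 2 higher members were Clec12a, an inhibitory lectin that binds uric acid crystals, at 138 to 201 CPM in the cDC1 libraries and 29.0 to 42.3 CPM in the cDC2 libraries (2.06 ± 0.19, edgeR adjusted p = 6.67e-05), and Notch2, a receptor that shapes gut cDC2 (0.36 ± 0.10, edgeR adjusted p = 0.0151).

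Of 18 genes shared by both lineages, 1 was higher in the cDC1 gate, 8 were lower and 9 did not pass (median log2 fold change -0.43). The called share of 50% lay near the 48.2% of all genes tested. The higher one was Cst3, the protease inhibitor cystatin C, at 9426 to 11165 CPM in the cDC1 libraries and 857 to 2783 CPM in the cDC2 libraries (2.73 ± 0.36, edgeR adjusted p = 0.000424). Runx3, a factor downstream of TGF-beta signals, lay at 52.3 to 127 CPM in the cDC1 libraries and 339 to 397 CPM in the cDC2 libraries (-2.08 ± 0.17, edgeR adjusted p = 3.43e-05). Relb, an NF-kB subunit that rises with maturation, was lower in the cDC1 gate as well (-1.92 ± 0.08, edgeR adjusted p = 1.74e-06).

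Among genes for MHC class I presentation and cross-presentation more were higher than lower. Of 25 tested, 12 were higher in the cDC1 gate, 4 lower and 9 did not pass, with a median log2 fold change of 0.27. The higher members held the immunoproteasome subunit Psmb9, the peptide transporter Tap1 and Rab43, a small GTPase needed for cross-presentation by mouse cDC1. Psmb9 lay at 319 to 388 CPM in the cDC1 libraries and 113 to 148 CPM in the cDC2 libraries (1.41 ± 0.08, edgeR adjusted p = 6.08e-06). Tap1 lay at 93.0 to 157 CPM in the cDC1 libraries and 29.3 to 72.4 CPM in the cDC2 libraries (1.34 ± 0.07, edgeR adjusted p = 5.13e-06). Rab43 lay at 663 to 920 CPM in the cDC1 libraries and 232 to 460 CPM in the cDC2 libraries (1.30 ± 0.07, edgeR adjusted p = 4.88e-06). The proteasome activator gene Psme1 (1.02 ± 0.11, edgeR adjusted p = 0.000116), Psmb8 (1.27 ± 0.14, edgeR adjusted p = 0.000143), the chaperone Pdia3 (1.18 ± 0.12, edgeR adjusted p = 9.92e-05) and Tap2 (1.06 ± 0.12, edgeR adjusted p = 0.000218) were higher as well, and these 4 were picked after their values were seen.

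B2m, the light chain of class I molecules, was lower. It lay at 518 to 599 CPM in the cDC1 libraries and 692 to 991 CPM in the cDC2 libraries (-0.64 ± 0.07, edgeR adjusted p = 0.000112). H2-Q4, a class Ib gene with near-identical relatives, was lower too (-0.60 ± 0.13, edgeR adjusted p = 0.00491), so its counts are uncertain. Cybb (chrX:9435252-9487771, minus strand), the catalytic chain of the phagocyte NADPH oxidase, differed most of the list, at 22.4 to 47.2 CPM in the cDC1 libraries and 240 to 601 CPM in the cDC2 libraries (-3.68 ± 0.15, edgeR adjusted p = 1.68e-06).

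Tap1 and Psmb9 start from 1 shared stretch of 225 bases on chromosome 17, and both were higher in the cDC1 gate, so that stretch is shown, with the part of the Cybb promoter that holds the motifs searched (RefSeq, GRCm38.p6). The Tap1 stretch (chr17:34187331-34187555, plus strand) ends at the base before the Tap1 start and holds no match. In the Cybb stretch (chrX:9469424-9469532, minus strand, 208 to 100 bases before the start) capitals mark the interferon response element, which is GAAA and GAAA with 2 bases between them, in 2 places on the reverse strand. Capitals also mark TGANTCA, the loose pattern searched for AP-1 sites with any base at N, in 1 place, where it reads TGAATCA.
Tap1: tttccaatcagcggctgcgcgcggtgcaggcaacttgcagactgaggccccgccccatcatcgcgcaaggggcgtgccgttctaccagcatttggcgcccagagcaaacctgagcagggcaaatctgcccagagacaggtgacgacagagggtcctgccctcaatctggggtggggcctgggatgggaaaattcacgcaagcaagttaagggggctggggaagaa
Cybb: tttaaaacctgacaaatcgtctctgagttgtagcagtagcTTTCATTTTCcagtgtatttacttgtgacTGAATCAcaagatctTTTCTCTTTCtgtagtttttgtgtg

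Of 15 genes for MHC class II presentation tested, 2 were higher in the cDC1 gate, 7 lower and 6 did not pass (median log2 fold change -0.12). A fit on hashtags 2, 4 and 5 gave 7 higher and 7 lower members, where 24.5% of all genes tested were higher and 25.3% lower. The fit on hashtags 6, 8 and 9 gave 2 higher and 10 lower members, where 31.7% of all genes tested were higher and 31.1% lower. H2-Aa, an alpha chain, lay at 4569 to 6550 CPM in the cDC1 libraries and 3544 to 7562 CPM in the cDC2 libraries (0.05 ± 0.17, edgeR adjusted p = 0.826), and its sign turned between these sets of hashtags. The higher members were March1, the ubiquitin ligase that turns over MHC class II (153 to 589 CPM in the cDC1 libraries against 36.4 to 392 CPM in the cDC2 libraries, 1.34 ± 0.22, edgeR adjusted p = 0.00139), and H2-DMb1, a chain of the peptide exchange factor H2-DM (293 to 414 CPM in the cDC1 libraries against 140 to 256 CPM in the cDC2 libraries, 0.81 ± 0.13, edgeR adjusted p = 0.00114). Its sister chain H2-DMb2 went the other way, at 49.9 to 61.5 CPM in the cDC1 libraries and 203 to 227 CPM in the cDC2 libraries (-2.02 ± 0.10, edgeR adjusted p = 3.64e-06). H2-Eb2, a little-studied beta chain, lay at 3.38 to 7.19 CPM in the cDC1 libraries and 15.6 to 110 CPM in the cDC2 libraries (-3.08 ± 0.24, edgeR adjusted p = 2.97e-05). Lgmn, the asparaginyl protease that cuts antigen and the invariant chain, was lower at -1.81 ± 0.32 (edgeR adjusted p = 0.00217). H2-DMb1 and H2-DMb2 are similar in sequence, and the handling of reads that match both is not stated in the labels.

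Of 23 Toll-like receptor and adaptor genes tested (25 listed), 8 were higher in the cDC1 gate, 9 lower and 6 did not pass (median log2 fold change -0.07). Without cells with 2 or more Ccr7 UMIs or a Mki67 or Top2a UMI, 5 of 17 tested were lower, where 2197 of all 9385 genes tested were lower. Tlr3, the sensor of double-stranded RNA, lay at 148 to 235 CPM in the cDC1 libraries and 4.50 to 10.7 CPM in the cDC2 libraries (4.79 ± 0.10, edgeR adjusted p = 1.07e-07). Tlr12 lay at 17.1 to 49.5 CPM in the cDC1 libraries and 0.772 to 1.62 CPM in the cDC2 libraries (4.92 ± 0.21, edgeR adjusted p = 1.68e-06). Tlr11, which in mice binds parasite profilin as Tlr12 does, lay at 35.4 to 137 CPM in the cDC1 libraries and 4.99 to 16.7 CPM in the cDC2 libraries (2.88 ± 0.19, edgeR adjusted p = 1.07e-05). No groups overlapped for these 3 genes.

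Among the lower receptors were Tlr7, the sensor of single-stranded RNA, at 0.0967 to 1.37 CPM in the cDC1 libraries and 2.96 to 10.6 CPM in the cDC2 libraries (-3.02 ± 0.37, edgeR adjusted p = 0.000315), and Tlr1, which senses lipopeptides with Tlr2 (-2.55 ± 0.22, edgeR adjusted p = 4.12e-05). Ticam2, the TRAM adaptor used by Tlr4, was lower at -3.28 ± 0.21 (edgeR adjusted p = 9.67e-06). The part of the Tlr11 promoter with a match is shown because Tlr11 was among the higher receptors and its promoter holds 1 match (chr14:50357752-50357841, plus strand, 162 to 73 bases before the start, RefSeq, GRCm38.p6), with the interferon response element in capitals.
Tlr11: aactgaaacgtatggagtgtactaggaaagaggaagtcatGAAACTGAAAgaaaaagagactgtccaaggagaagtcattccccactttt

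Sensors of nucleic acids in the cytosol and interferon-response genes gave 4 higher, 8 lower and 10 not passing of 22 tested (27 listed, median log2 fold change -0.66). Their called share of 54.5% lay near the 48.2% of all genes tested. The lower members numbered 4 without hashtag 6 and 4 without hashtag 8. Over all genes tested, 2174 of 10636 and 2301 of 10643 were lower in these fits. The RNA helicase Ddx58 (RIG-I) lay at 0.329 to 5.31 CPM in the cDC1 libraries and 10.2 to 38.6 CPM in the cDC2 libraries (-3.22 ± 0.31, edgeR adjusted p = 8.38e-05). Ifih1 (MDA5) lay at 13.6 to 30.8 CPM in the cDC1 libraries and 45.8 to 60.6 CPM in the cDC2 libraries (-1.47 ± 0.19, edgeR adjusted p = 0.000386), and Oas1a, which makes the RNase L activator, stood at -2.57 ± 0.18 (edgeR adjusted p = 1.41e-05). Bst2 (0.95 ± 0.18, edgeR adjusted p = 0.00254) and Irf9 (0.64 ± 0.11, edgeR adjusted p = 0.00213), parts of the interferon response, were among the higher members.

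The listed genes for C-type lectins and their signalling were mostly lower in the cDC1 gate: 11 of 14 tested (21 listed) were lower, 3 higher and 0 did not pass (median log2 fold change -1.34). The lectin genes Clec12a (higher) and Clec4a4 and Cd209a (lower) were counted with the cDC2 lineage genes instead. Clec4n, the fungal sensor Dectin-2, lay at 2.96 to 8.23 CPM in the cDC1 libraries and 19.8 to 110 CPM in the cDC2 libraries (-3.60 ± 0.36, edgeR adjusted p = 0.000104). Cd209b stood at -3.35 ± 0.31 (edgeR adjusted p = 6.36e-05) and Clec4b1 at -3.18 ± 0.17 (edgeR adjusted p = 4.46e-06). Clec1a lay at 22.5 to 125 CPM in the cDC1 libraries and 2.95 to 7.78 CPM in the cDC2 libraries (3.02 ± 0.39, edgeR adjusted p = 0.000378). Ly75, the uptake receptor DEC-205, lay at 90.5 to 115 CPM in the cDC1 libraries and 23.3 to 70.5 CPM in the cDC2 libraries (1.17 ± 0.28, edgeR adjusted p = 0.0089). The third higher member, Klrb1b, passed at 0.79 ± 0.24 (edgeR adjusted p = 0.0257) and did not pass without hashtag 6 (0.80, edgeR adjusted p = 0.0669) or hashtag 9 (0.51, edgeR adjusted p = 0.108). Nor did it pass without cells with 2 or more Ccr7 UMIs or a Mki67 or Top2a UMI (0.80, edgeR adjusted p = 0.0717) or without cells with C1q, Adgre1, Fcgr1 or Ly6c2 UMIs (0.77, edgeR adjusted p = 0.134).

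Besides Sirpa, which the rule used, the receptors of the SIRP, Siglec and paired families were lower in 18 of 20 tested (24 listed) and higher in 2 (median log2 fold change -2.99). Sirpb1a (chr3:15371653-15426520, minus strand) lay at 1.96 to 6.39 CPM in the cDC1 libraries and 19.7 to 333 CPM in the cDC2 libraries (-4.75 ± 0.41, edgeR adjusted p = 4.44e-05). Sirpb1b (chr3:15495751-15575065, minus strand) lay at 2.13 to 7.46 CPM in the cDC1 libraries and 20.2 to 226 CPM in the cDC2 libraries (-4.35 ± 0.30, edgeR adjusted p = 1.54e-05). Sirpb1c (chr3:15795145-15848528, minus strand) lay at 0 to 1.42 CPM in the cDC1 libraries and 6.95 to 115 CPM in the cDC2 libraries (-5.46 ± 0.38, edgeR adjusted p = 1.47e-05). These 3 neighbours on chromosome 3 are close copies, so their separate values are uncertain. Part of the promoters of Sirpb1a (chr3:15426605-15426677) and Sirpb1b (chr3:15575150-15575222) is shown because they share it: 71 of 73 bases match, and both hold 1 interferon response element, in capitals (minus strand, RefSeq, GRCm38.p6).
Sirpb1a: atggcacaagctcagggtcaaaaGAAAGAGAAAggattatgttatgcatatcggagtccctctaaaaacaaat
Sirpb1b: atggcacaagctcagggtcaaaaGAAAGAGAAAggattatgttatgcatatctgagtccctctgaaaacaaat

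Other members of the list showed the same direction. Siglece, an inhibitory receptor for sialic acids, lay at 2.66 to 5.70 CPM in the cDC1 libraries and 20.9 to 49.2 CPM in the cDC2 libraries (-3.49 ± 0.21, edgeR adjusted p = 7.82e-06), a gene picked after its values were seen. The 2 higher members were Treml4, a receptor of the TREM family, at 34.6 to 59.5 CPM in the cDC1 libraries and 11.8 to 29.8 CPM in the cDC2 libraries (1.32 ± 0.09, edgeR adjusted p = 1.14e-05), and Cd300c (1.73 ± 0.42, edgeR adjusted p = 0.0102). Neither of the 2 had overlapping groups. Of 4 Fc receptor genes tested (11 listed), Fcgrt, the neonatal Fc receptor, was higher (0.38 ± 0.11, edgeR adjusted p = 0.0216), Fcer1g, the shared signalling chain, was lower at 66.1 to 112 CPM in the cDC1 libraries against 366 to 435 CPM in the cDC2 libraries (-2.26 ± 0.21, edgeR adjusted p = 7.19e-05), and the others did not pass. The lower Fc receptor genes numbered 3 without hashtag 2, 2 without hashtag 4 and 3 without hashtag 5. Over all genes tested, 2681 of 11497, 2637 of 11461 and 2632 of 11454 were lower in these fits.

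Of 10 chemokine genes tested (19 listed), 1 was higher in the cDC1 gate, 6 were lower and 3 did not pass (median log2 fold change -1.29). Cxcl9, which draws Cxcr3-bearing T cells, lay at 82.0 to 296 CPM in the cDC1 libraries and 4.46 to 11.0 CPM in the cDC2 libraries (4.47 ± 0.24, edgeR adjusted p = 4.61e-06). Its groups did not overlap. The higher members numbered 2 without hashtag 8, where 2163 of all 10643 genes tested were higher. Ccl5 lay at 16.3 to 28.0 CPM in the cDC1 libraries and 52.8 to 405 CPM in the cDC2 libraries (-2.92 ± 0.36, edgeR adjusted p = 0.000315). Ccl3 (-1.89 ± 0.36, edgeR adjusted p = 0.00312) and Cxcl2 (-1.44 ± 0.36, edgeR adjusted p = 0.0118), which draw inflammatory cells, were lower as well, with overlapping ranges.

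Among 14 receptors for chemokines and other migration cues (22 listed), 3 were higher in the cDC1 gate, 10 lower and 1 did not pass (median log2 fold change -1.43). Cxcr3, the receptor for Cxcl9, lay at 22.6 to 31.2 CPM in the cDC1 libraries and 0.845 to 4.92 CPM in the cDC2 libraries (3.93 ± 0.24, edgeR adjusted p = 8.67e-06). Ccr2 lay at 63.8 to 261 CPM in the cDC1 libraries and 3.89 to 47.6 CPM in the cDC2 libraries (3.29 ± 0.17, edgeR adjusted p = 4.01e-06). Ccr9, the small-intestinal homing receptor, lay at 75.4 to 127 CPM in the cDC1 libraries and 6.59 to 48.0 CPM in the cDC2 libraries (2.30 ± 0.27, edgeR adjusted p = 0.000259). None of these 3 had overlapping groups.

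In the opposite direction, Ccr6, the receptor for Ccl20, lay at 0.228 to 3.90 CPM in the cDC1 libraries and 2.28 to 67.4 CPM in the cDC2 libraries (-3.72 ± 0.36, edgeR adjusted p = 8.19e-05). Ptger3, a prostaglandin E2 receptor, lay at 1.64 to 2.96 CPM in the cDC1 libraries and 16.8 to 42.3 CPM in the cDC2 libraries (-3.66 ± 0.14, edgeR adjusted p = 1.23e-06). Ccr1 was lower at -3.06 ± 0.62 (edgeR adjusted p = 0.00412) with overlapping ranges. For Ccr6, the RORgt+ dendritic cell marker list to which it also belongs summed to 2.96 to 8.15 CPM in the cDC1 libraries and 3.72 to 75.5 CPM in the cDC2 libraries, and the part of such cells was not tested.

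Of 10 cytokine genes tested (22 listed), 1 was higher in the cDC1 gate, 6 were lower and 3 did not pass (median log2 fold change -0.79). Il15, the survival factor for NK and CD8 T cells, lay at 25.7 to 69.1 CPM in the cDC1 libraries and 7.89 to 32.4 CPM in the cDC2 libraries (1.42 ± 0.08, edgeR adjusted p = 4.88e-06), with overlapping ranges. It was higher in 6 of 6 hashtags, and the naming rule asked for 1 sign in all of them. Tnf lay at 11.0 to 33.3 CPM in the cDC1 libraries and 82.4 to 202 CPM in the cDC2 libraries (-2.49 ± 0.29, edgeR adjusted p = 0.000226). Il1b lay at 78.6 to 365 CPM in the cDC1 libraries and 146 to 2713 CPM in the cDC2 libraries (-1.96 ± 0.43, edgeR adjusted p = 0.00625). Il12b, the cytokine chain that cDC1 are known to make, stood at 1.41 ± 0.55 and did not pass (edgeR adjusted p = 0.0652). Il1rn, the interleukin 1 antagonist, was lower at -3.28 ± 0.49 (edgeR adjusted p = 0.000847).

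Cytokine and growth factor receptors were lower in 15 of 19 tested (22 listed), higher in 1 and not passing in 3 (median log2 fold change -0.65). The higher one was Ifngr1, the ligand-binding chain of the interferon gamma receptor, at 398 to 556 CPM in the cDC1 libraries and 223 to 266 CPM in the cDC2 libraries (0.96 ± 0.07, edgeR adjusted p = 1.39e-05). Il2rg, the shared gamma chain, lay at 10.2 to 19.2 CPM in the cDC1 libraries and 89.5 to 138 CPM in the cDC2 libraries (-3.06 ± 0.13, edgeR adjusted p = 1.68e-06). Il7r lay at 1.97 to 9.85 CPM in the cDC1 libraries and 32.1 to 49.8 CPM in the cDC2 libraries (-2.95 ± 0.24, edgeR adjusted p = 3.43e-05), and Il18r1 was lower too (-2.40 ± 0.36, edgeR adjusted p = 0.00088). Innate lymphocyte type 3 markers, which include Il7r, summed to 85.2 to 243 CPM in the cDC1 libraries and 288 to 331 CPM in the cDC2 libraries, with Il22 and Il17a at 0 in the cDC1 libraries and Il17a at 0 in the cDC2 libraries.

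Costimulatory and coinhibitory ligands were lower in 12 of 16 tested (22 listed), higher in 2 (Cd200 and Slamf7) and not passing in 2 (median log2 fold change -1.39). The higher members numbered 1 without hashtag 4, 6 or 9. Over all genes tested, 2496 of 11461, 1984 of 10636 and 1991 of 10645 were higher in these fits. Cd274, the inhibitory ligand PD-L1, lay at 26.0 to 109 CPM in the cDC1 libraries and 244 to 822 CPM in the cDC2 libraries (-3.15 ± 0.14, edgeR adjusted p = 1.99e-06). Tnfsf14 (LIGHT) lay at 0 to 1.06 CPM in the cDC1 libraries and 2.57 to 13.4 CPM in the cDC2 libraries (-4.04 ± 0.46, edgeR adjusted p = 0.000199). Tnfsf9, the 4-1BB ligand, was lower at -2.80 ± 0.51 (edgeR adjusted p = 0.00233). Cd86, a main ligand of CD28 picked here after its values were seen, did not pass (-1.11 ± 0.42, edgeR adjusted p = 0.0561). It lay at 366, 366 and 366 CPM in the cDC1 gate and 395, 359 and 458 CPM in the cDC2 gate of hashtags 2, 4 and 5, and at 891, 833 and 888 CPM in the cDC1 gate and 3447, 3636 and 3186 CPM in the cDC2 gate of hashtags 6, 8 and 9. The hashtags with high Cd86 in the cDC2 gate are those in which 42.9% to 50.4% of that gate held 2 or more Ccr7 UMIs. Without these cells and cells with Mki67 or Top2a UMIs, Cd86 stood at -1.12 ± 0.46 (edgeR adjusted p = 0.0794) and Cd274 kept its call. The part of such cells in the Cd86 levels was not tested, and it cannot be told apart from depth and other features of these hashtags.

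**Figure D4:**
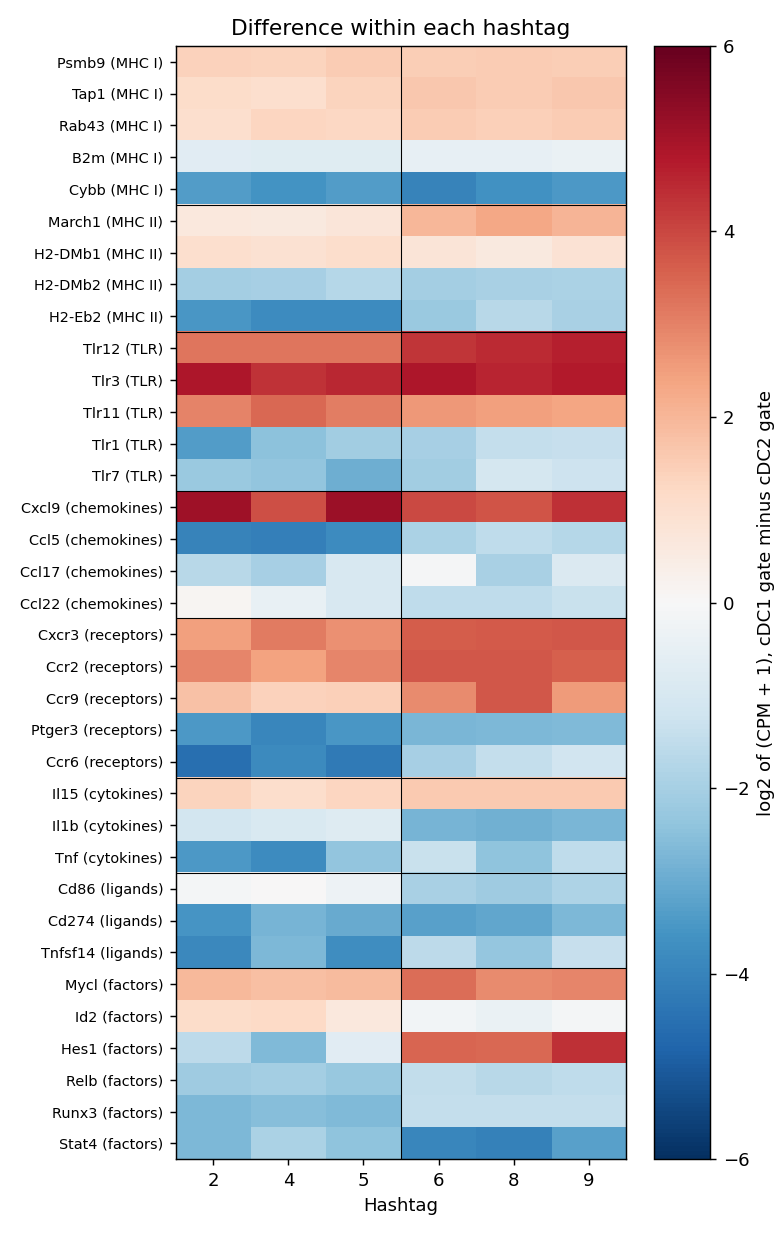
Difference between the gates within each hashtag (columns), as log2 of CPM + 1 in the cDC1 gate minus the same in the cDC2 gate, for genes of 8 groups (rows); red is higher and blue lower in the cDC1 gate. Most rows keep 1 colour over 6 hashtags, while Hes1 and Id2 change colour between hashtags 2, 4, 5 and 6, 8, 9.

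Inflammasome and caspase genes gave 2 higher, 9 lower and 5 not passing of 16 tested (18 listed, median log2 fold change -0.49). Nlrc4, which assembles on bacterial flagellin sensors, lay at 3.38 to 13.8 CPM in the cDC1 libraries and 25.6 to 64.6 CPM in the cDC2 libraries (-2.62 ± 0.16, edgeR adjusted p = 7.69e-06). Casp4, the sensor of cytosolic lipopolysaccharide, was lower at -2.39 ± 0.51 (edgeR adjusted p = 0.00513) and Nlrp3 at -2.25 ± 0.44 (edgeR adjusted p = 0.00363). Casp6 lay at 41.9 to 59.1 CPM in the cDC1 libraries and 9.52 to 22.3 CPM in the cDC2 libraries (1.70 ± 0.12, edgeR adjusted p = 1.79e-05).

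Receptors and adaptors for the uptake of apoptotic cells were lower in 7 of 13 tested (24 listed), higher in 2 and not passing in 4 (median log2 fold change -0.97). Without cells with a Mki67 or Top2a UMI, 4 of 10 tested were lower, where 2230 of all 9590 genes tested were lower. Cd300lf, a phosphatidylserine-binding receptor, lay at 5.03 to 11.7 CPM in the cDC1 libraries and 54.3 to 147 CPM in the cDC2 libraries (-3.57 ± 0.13, edgeR adjusted p = 1.04e-06). Scarb1, a lipoprotein receptor, lay at 39.2 to 82.0 CPM in the cDC1 libraries and 18.9 to 34.4 CPM in the cDC2 libraries (1.06 ± 0.14, edgeR adjusted p = 0.000474). Timd4, which binds phosphatidylserine and is a macrophage marker as well, was lower at -1.63 ± 0.35 (edgeR adjusted p = 0.0051). Clec9a, the receptor of this kind for which cDC1 are known, belongs to the rule.

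Lysosomal genes were lower in 14 of 22 tested (27 listed), higher in 4 and not passing in 4 (median log2 fold change -0.87). The protease genes Ctsa and Ctsd lay at 10.9 to 20.5 CPM and 1.35 to 5.59 CPM in the cDC1 libraries, against 73.9 to 84.9 CPM and 9.80 to 20.4 CPM in the cDC2 libraries (-2.50 ± 0.14, edgeR adjusted p = 4.94e-06, and -2.43 ± 0.21, edgeR adjusted p = 4.14e-05). Gusb, the enzyme beta-glucuronidase, lay at 114 to 197 CPM in the cDC1 libraries and 39.2 to 49.2 CPM in the cDC2 libraries (1.75 ± 0.18, edgeR adjusted p = 0.000114). Psap, the precursor of the saposins that activate lipid-degrading enzymes, picked after its values were seen, lay at 2139 to 2312 CPM in the cDC1 libraries and 570 to 748 CPM in the cDC2 libraries (1.63 ± 0.12, edgeR adjusted p = 1.98e-05). Lyz1, which shares sequence with Lyz2, was higher at 2.92 ± 0.50 (edgeR adjusted p = 0.00172) from at most 17.3 CPM, and its counts are uncertain.

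Lipid genes were lower in 12 of 17 tested (25 listed), higher in 2 and not passing in 3 (median log2 fold change -1.06). Ptgs2, the prostaglandin-forming enzyme COX-2, lay at 11.5 to 41.4 CPM in the cDC1 libraries and 41.6 to 540 CPM in the cDC2 libraries (-2.98 ± 0.47, edgeR adjusted p = 0.00119). Hpgds, the prostaglandin D2 synthase, was lower at -1.88 ± 0.11 (edgeR adjusted p = 6.42e-06). Plin2, a coat protein of lipid droplets, lay at 111 to 134 CPM in the cDC1 libraries and 26.9 to 63.8 CPM in the cDC2 libraries (1.45 ± 0.23, edgeR adjusted p = 0.00128).

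Integrin and adhesion genes were split, with 9 higher, 8 lower and 4 not passing of 21 tested (26 listed, median log2 fold change 0.04). Itga1, a collagen receptor chain, lay at 23.9 to 63.0 CPM in the cDC1 libraries and 0.507 to 3.93 CPM in the cDC2 libraries (4.79 ± 0.26, edgeR adjusted p = 4.23e-06). Cd81, a tetraspanin, lay at 94.1 to 214 CPM in the cDC1 libraries and 7.53 to 39.2 CPM in the cDC2 libraries (3.03 ± 0.45, edgeR adjusted p = 0.000862). Cdh1, E-cadherin, lay at 0.329 to 4.33 CPM in the cDC1 libraries and 3.24 to 34.6 CPM in the cDC2 libraries (-3.28 ± 0.41, edgeR adjusted p = 0.000352), and Epcam stood at -2.23 ± 0.39 (edgeR adjusted p = 0.00193). Epithelial or stromal markers summed to 36.3 to 62.0 CPM in the cDC1 libraries and 106 to 149 CPM in the cDC2 libraries, with Reg3g at 0 in both, and the part of such RNA was not tested.

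Retinoic acid genes, which dendritic cells of the gut use to imprint homing on T cells, gave 2 higher, 3 lower and 7 not passing of 12 tested (19 listed, median log2 fold change -0.06). Their called share of 41.7% lay near the 48.2% of all genes tested. Ppard (-1.97 ± 0.41, edgeR adjusted p = 0.00473) and the retinal reductase gene Dhrs3 (-1.59 ± 0.38, edgeR adjusted p = 0.00925) were lower, and Rxra, a nuclear receptor partner, was higher (0.97 ± 0.24, edgeR adjusted p = 0.0107). Pparg passed at 1.18 ± 0.37 (edgeR adjusted p = 0.0298) but not without hashtag 4, 5, 8 or 9 (1.08 to 1.33, edgeR adjusted p = 0.0527 to 0.0744), nor without cells with a Mki67 or Top2a UMI (0.77, edgeR adjusted p = 0.134). The higher members of the list numbered 1 without hashtag 5, 8 or 9. Over all genes tested, 2509 of 11454, 2163 of 10643 and 1991 of 10645 were higher in these fits. Aldh1a2, the enzyme that makes retinoic acid, picked after its values were seen, did not pass over 6 hashtags (-0.14 ± 0.42, edgeR adjusted p = 0.809). It lay at 4.28, 2.13 and 5.59 CPM in the cDC1 gate and 13.1, 12.3 and 18.4 CPM in the cDC2 gate of hashtags 2, 4 and 5, and at 14.5, 18.7 and 18.9 CPM in the cDC1 gate and 8.02, 9.72 and 9.39 CPM in the cDC2 gate of hashtags 6, 8 and 9. Cyp26b1, which degrades retinoic acid, was removed from the 6-hashtag fit by the filter on low counts and was also picked after its values were seen. It lay at 0.658, 0.708 and 0 CPM in the cDC1 gate of hashtags 2, 4 and 5 and at 61.9, 63.8 and 73.1 CPM in that of hashtags 6, 8 and 9, while the cDC2 gate held 0.214 to 1.94 CPM throughout.

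Of 36 further transcription factor genes tested (44 listed), 5 were higher in the cDC1 gate, 19 lower and 12 did not pass (median log2 fold change -0.64). The higher members numbered 3 without hashtag 4, 5, 6 or 8. Over all genes tested, 2496 of 11461, 2509 of 11454, 1984 of 10636 and 2163 of 10643 were higher in these fits. Mycl, a MYC family factor that supports mouse cDC1, lay at 74.3 to 129 CPM in the cDC1 libraries and 7.53 to 35.3 CPM in the cDC2 libraries (2.50 ± 0.19, edgeR adjusted p = 2.14e-05). Stat4, which signals from the interleukin 12 receptor, lay at 9.21 to 45.6 CPM in the cDC1 libraries and 47.0 to 493 CPM in the cDC2 libraries (-3.28 ± 0.35, edgeR adjusted p = 0.000139). Prdm1, a repressor, was lower at -2.84 ± 0.48 (edgeR adjusted p = 0.00157), and Tcf7 at -2.54 ± 0.39 (edgeR adjusted p = 0.000949). Klf2 was higher at 2.12 ± 0.62 (edgeR adjusted p = 0.0223), a call that was lost without hashtag 6 (1.70, edgeR adjusted p = 0.0558), 8 (1.77, edgeR adjusted p = 0.0617) or 9 (1.81, edgeR adjusted p = 0.0695). Fos, an AP-1 subunit that tissue handling can raise, was higher at 1.30 ± 0.24 (edgeR adjusted p = 0.00285).

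Few cell cycle genes were called. Of 23 tested, 5 were higher in the cDC1 gate, 1 was lower and 17 did not pass (26.1% called, against 48.2% of all genes, median log2 fold change 0.19), and no member had groups that did not overlap. The higher members numbered 2 without hashtag 2, 2 without hashtag 6 and 3 without hashtag 9. Over all genes tested, 2533 of 11497, 1984 of 10636 and 1991 of 10645 were higher in these fits. Without cells with a Mki67 or Top2a UMI the higher members numbered 0 of 12 tested, where 2033 of all 9590 genes tested were higher. That setting leaves out cells by their proliferation genes, so lost cell cycle calls follow in part from the setting itself. Mcm6, part of the replication helicase, was at 0.56 ± 0.10 (edgeR adjusted p = 0.00239), and Tyms, which makes thymidylate, at 0.51 ± 0.13 (edgeR adjusted p = 0.0133). Without cells with a Mki67 or Top2a UMI they stood at 0.30 (edgeR adjusted p = 0.145) and 0.29 (edgeR adjusted p = 0.307). Cdk1 (0.55 ± 0.16, edgeR adjusted p = 0.0217) lost its call without hashtag 2 (edgeR adjusted p = 0.0539) or hashtag 6 (edgeR adjusted p = 0.0659), and without cells with 2 or more Ccr7 UMIs (0.44, edgeR adjusted p = 0.073). The lower member, Mcm4 (-0.34 ± 0.12, edgeR adjusted p = 0.0424), lost its call without hashtag 4, 5, 6, 8 or 9 (-0.36 to -0.26, edgeR adjusted p = 0.0542 to 0.132), and without cells with 2 or more Ccr7 UMIs (-0.36, edgeR adjusted p = 0.0513).

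Outside the lists, the genes with the highest fold changes were led by a matrix enzyme gene and a calcium channel gene. P3h2, a collagen prolyl hydroxylase, lay at 307 to 914 CPM in the cDC1 libraries and 3.97 to 9.40 CPM in the cDC2 libraries (6.45 ± 0.40, edgeR adjusted p = 8.43e-06). Cacna1e, a voltage-gated calcium channel subunit, lay at 107 to 227 CPM in the cDC1 libraries and 1.10 to 5.51 CPM in the cDC2 libraries (6.09 ± 0.20, edgeR adjusted p = 5.36e-07). Itga8, an integrin chain, lay at 48.2 to 197 CPM in the cDC1 libraries and 0.708 to 2.62 CPM in the cDC2 libraries (6.04 ± 0.27, edgeR adjusted p = 2.09e-06). Plpp1, a lipid phosphatase, Clnk, an immune receptor adaptor, Fgd6, P2ry14, the receptor for UDP-glucose, Pdia5 and Ifi211 had log2 fold changes of 5.87, 5.57, 5.31, 5.30, 4.76 and 4.56, each with an SE of 0.12 to 0.22. A gene named only by a Gm number completed the 10.

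The lowest outside the lists were Esrrg, an orphan nuclear receptor, at 0.912 to 8.50 CPM in the cDC1 libraries and 11.6 to 226 CPM in the cDC2 libraries (-4.46 ± 0.34, edgeR adjusted p = 2.51e-05), and Dlc1 (-4.36 ± 0.33, edgeR adjusted p = 2.17e-05). Ehf, an ETS family factor best known in epithelium, lay at 3.95 to 6.64 CPM in the cDC1 libraries and 79.6 to 92.8 CPM in the cDC2 libraries (-4.10 ± 0.10, edgeR adjusted p = 2.06e-07), with the smallest SE of these. Mreg, a melanosome and phagosome factor, lay at 10.6 to 17.0 CPM in the cDC1 libraries and 156 to 333 CPM in the cDC2 libraries (-4.03 ± 0.14, edgeR adjusted p = 7.25e-07). Myo1e, Cd101, Dthd1 and the collagen receptor gene Ddr1 stood at -4.07, -3.98, -3.83 and -3.78 with an SE of 0.16 to 0.38, and the other 2 are named only by numbers. All the genes of these 2 paragraphs kept their sign in 6 of 6 hashtags, which the rule that picked them asked for.

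Promoters were searched on both strands over the 250 bases before each RefSeq start for 3 motifs: the PU.1-IRF composite site (GGAA and GAAA with 2 bases between them), the interferon response element (GAAA and GAAA with 2 bases between them) and a loose pattern for the AP-1 site (TGANTCA, with any base at N). Of 665 genes called at least 2-fold higher in the cDC1 gate (6.18% of those tested), 523 had a promoter entry, and 1.72%, 4.21% and 6.12% of these held the motifs in that order. Matches of different motifs may overlap. Of 1146 genes called at least 2-fold lower (10.6%), 862 had an entry, with 2.67%, 4.99% and 8.01%. Over the 8457 tested genes with an entry the shares were 2.50%, 3.52% and 5.16%. These shares are descriptions of sequence only, and no difference between them was tested.

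The hashtags fell into 2 sets by depth, 2, 4 and 5 with lower and 6, 8 and 9 with higher median UMIs in both gates, and the labels name no reason for it. The labels give mLN and siLP with 3 replicates each and tie neither to a hashtag. With hashtags 2, 4 and 5 alone, 5481 of 11002 genes were called (49.8%, with 24.5% higher and 25.3% lower), and with hashtags 6, 8 and 9 alone 7558 of 12030 (62.8%, with 31.7% higher and 31.1% lower). Of 10747 genes tested in both fits, 4058 were called in both, 3593 with the same sign and 465 with opposite signs (4.33% of those tested). Of the 465, 266 were higher in the cDC1 gate in hashtags 2, 4 and 5 and lower in hashtags 6, 8 and 9, and 199 the reverse. Among the list members, leaving aside markers of other cell types, and the named genes tested in both fits, 27 of 422 were called with opposite signs. The sets were known from earlier results of these data, the difference between them was not tested, and tissue, depth and other features that may go with them cannot be told apart.

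Among those 27, Hes1 and Zfp366 lay furthest apart between the sets, and both were picked after their values were seen. Hes1, a target of Notch signals, lay at 16.8, 8.50 and 34.6 CPM in the cDC1 gate and 51.8, 57.7 and 56.3 CPM in the cDC2 gate of hashtags 2, 4 and 5. In hashtags 6, 8 and 9 it lay at 49.4, 54.9 and 64.4 CPM in the cDC1 gate and 3.45, 4.06 and 2.14 CPM in the cDC2 gate. Its log2 fold change was -1.34 ± 0.22 in the first set (edgeR adjusted p = 3.08e-05) and 4.05 ± 0.19 in the second (edgeR adjusted p = 1.28e-07), and over all 6 it did not pass (1.27 ± 1.14, edgeR adjusted p = 0.389). Zfp366 (DC-SCRIPT), a dendritic cell factor, turned the other way, at 0.97 ± 0.06 (edgeR adjusted p = 2.32e-11) and -2.48 ± 0.08 (edgeR adjusted p = 1.8e-08). It lay at 576, 590 and 502 CPM in the cDC1 gate and 315, 308 and 310 CPM in the cDC2 gate of hashtags 2, 4 and 5, and at 184, 197 and 229 CPM in the cDC1 gate and 1028, 1008.5 and 960 CPM in the cDC2 gate of hashtags 6, 8 and 9.

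The MHC class II genes Cd74, H2-Aa and H2-Eb1 shared that turn at smaller size. They stood at 0.58 ± 0.04, 0.51 ± 0.04 and 0.42 ± 0.04 in hashtags 2, 4 and 5 (edgeR adjusted p = 2.73e-10, 2.71e-09 and 8.07e-08) and at -0.39 ± 0.03, -0.34 ± 0.03 and -0.46 ± 0.03 in hashtags 6, 8 and 9 (edgeR adjusted p = 4.21e-06, 1.07e-05 and 1.52e-06). Cd74, the invariant chain, lay at 8681 to 9032 CPM in the cDC1 gate and 6168 to 6824 CPM in the cDC2 gate of the first set, and at 10884 to 11298 CPM in the cDC1 gate and 12401 to 13464 CPM in the cDC2 gate of the second. Over 6 hashtags Cd74 stood at 0.06 in all cells (edgeR adjusted p = 0.808). Without cells with 2 or more Ccr7 UMIs or Mki67 or Top2a UMIs, Cd74 stood at 0.20 ± 0.16 over 6 hashtags (edgeR adjusted p = 0.344). The sets of hashtags were not fitted apart without these cells. By contrast, Irf8 was at 5.46 ± 0.07 and 5.67 ± 0.06, Tlr3 at 4.84 ± 0.12 and 4.81 ± 0.09, and Zeb2 at -4.46 ± 0.10 and -3.78 ± 0.10 in the first and the second set.

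**Figure D5:**
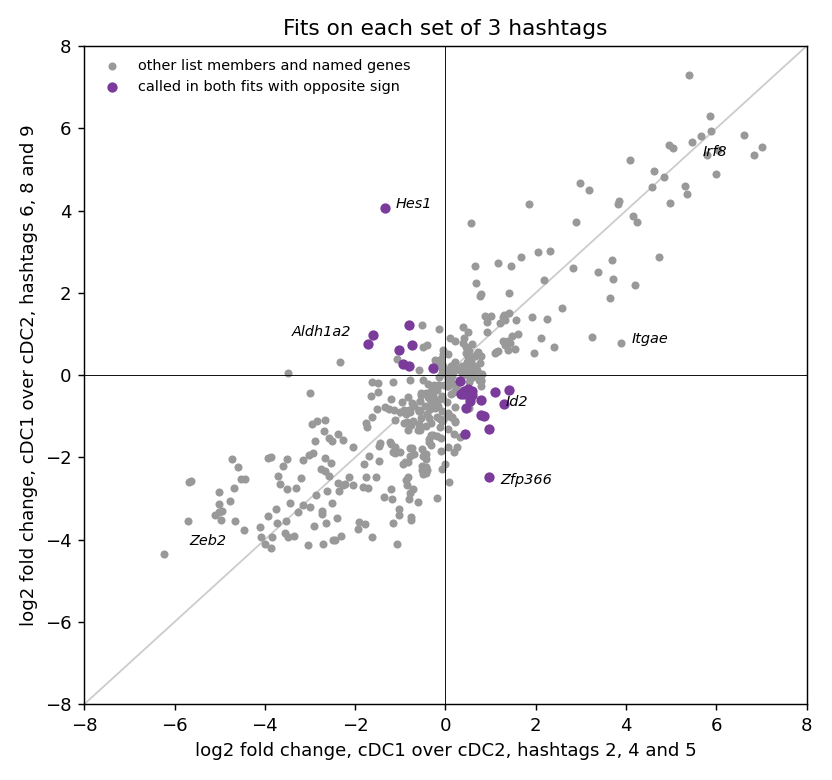
Log2 fold change of cDC1 over cDC2 with hashtags 2, 4 and 5 (x axis) and with hashtags 6, 8 and 9 (y axis) for 422 list members and named genes; purple marks the 27 called in both fits with opposite signs, and the diagonal marks equal values. Hes1 and Zfp366 lie farthest from the diagonal among the purple points, and Irf8 and Zeb2 lie close to it.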

How the data were processed

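The authors deposited raw UMI counts per gene and barcode from Chromium 3' v3 libraries, made with Cell Ranger 8.0.1 on mm10 per the submitters' processing notes, and a table of hashtag calls whose assignment probability is a fraction computed by the authors. The labels do not state whether intronic reads were counted. Of 3247803 barcodes, none repeated, 27679 were in that table, 19239 with 1 hashtag, 4815 as multiplets, 1706 blank and 1919 unassigned; 15 other columns of per-barcode probabilities and notes were not used. Multiplets were left out and no doublet caller was run. The filter on genes removed 1294 and that on mitochondrial UMIs 3627 cells, in part the same.

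Counts were summed per gate and hashtag and fitted with edgeR 4.0.16 (R 4.3.3, TMM scaling, filterByExpr, quasi-likelihood test with hashtag and gate as terms, 5 residual degrees of freedom, common dispersion 0.0363), with adjustment over all 10761 genes tested. Gate genes and mitochondrial genes were not tested. Both gates of a hashtag come from the same biological replicate, per the series' design text, which pairs them, and the deviations of paired libraries correlated at 0.634 to 0.722, though the cDC1 libraries of hashtags 5 and 6 matched the cDC2 libraries of hashtags 2 and 9 best. On simulated counts with 100 genes changed at each size, 92 were recovered at a log2 fold change of 1 and 96 at 2, with 12 false calls among 10596 genes. The simulation used a single dispersion and changed only well-counted genes, by the same amount in every hashtag. It changed far fewer genes than were called here, so it does not give the recovery or false calls of the real fit. CPM are UMIs per 1000000 of a summed library, and log2 fold changes are cDC1 over cDC2. Their errors are approximate SE, derived as the absolute log2 fold change divided by the square root of the test's F value. Gene coordinates are those of GENCODE vM21 (GRCm38). Named genes were the gate genes, 14 lineage genes named whatever their result, up to 3 called genes per list and direction with 1 sign in 6 hashtags, and the 10 highest and lowest outside the lists at a mean of at least 20 CPM; Nfil3, Psmb8, Pdia3, Psme1, Tap2, H2-Aa, H2-Eb1, Cd74, Il12b, Cd86, Cd200, Slamf7, Siglece, Psap, Aldh1a2, Cyp26b1, Hes1 and Zfp366 were named after their values were seen. One gene that this rule names is not reported here. The gates, members and lists were chosen with earlier results of these data known. Alternatives were other gates, filters, scalings and subsets of cells and hashtags, DESeq2 1.42.0, each hashtag left out, and the fit without the hashtag block.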

Additional observations from a re-analysis of the deposited data

Results flagged for a closer look

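In 5 of 150 groups of 6 values, 1 hashtag lay apart from the others by more than 0.625 of the whole range, where chance alone gives about 1 in 20. The groups were the within-hashtag differences of named genes and, for each gate, its cell share, median UMIs and genes, and Ccr7 and cycling shares. That rate takes the 6 hashtags as 1 group, whereas they fell into 2 sets by depth. The difference of Cadm1 was 4.80 in hashtag 4, against 3.61 to 4.05 in the others. Notch2 stood at 0.24 in hashtag 9, against 0.40 to 0.49, and Fcgrt at 0.74 in hashtag 5, against 0.31 to 0.44. Cd300lf stood at -4.17 in hashtag 2, against -3.35 to -3.05. Gm43914, a gene outside the lists, stood at 6.61 in hashtag 4, against 4.85 to 5.26. Values are cDC1 minus cDC2 in log2 of CPM + 1, and each of these genes kept its sign in 6 of 6 hashtags.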

How the results depend on the processing

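Counts of calls stayed within 1.5 times in most settings. They moved to 1273 higher and 1484 lower of 7196 tested with cells thinned to 2000 UMIs, to 1418 higher and 1614 lower without the replicate block, and to 3811 higher with hashtags 6, 8 and 9 only. Leaving out 1 hashtag gave 1984 to 2533 higher and 2138 to 2681 lower, of 10636 to 11497 tested. No gene called over 6 hashtags and in any of these settings changed sign, and 50.5% of the calls were kept with thinned cells, 58.0% without the block and 78.4% to 89.9% with 1 hashtag left out. Without the block 23 of 140 named genes lost their call, including Itgae (adjusted p = 0.29) and Klf4 (adjusted p = 0.53). Without cells with C1q, Adgre1, Fcgr1 or Ly6c2 UMIs, the higher members numbered 2 among chemokines, 1 among costimulatory ligands, 1 among inflammasome genes, 1 among retinoic acid genes and 3 among further transcription factors, and the lower ones 2 among Fc receptors, 5 among retinoic acid genes and 0 among cell cycle genes. In that setting 1967 of all 9901 genes tested were higher and 2215 lower. Id2 reversed to -0.41 with hashtags 6, 8 and 9 only. Zbtb46, which was not called, stood at 0.059 thinned, 0.064 without cells with 2 or more Ccr7 UMIs, 0.054 without cells with Mki67 or Top2a UMIs, 0.027 without cells with C1q, Adgre1, Fcgr1 or Ly6c2 UMIs, 0.049 with hashtags 2, 4 and 5 only, and, in settings added after the data were seen, 0.011 in cells of 5000 to 20000 UMIs and 0.12 without Ccr7 or cycling cells. The depth difference was 4024.2 and 5145.3 UMIs with hashtags 2, 4 and 5 and with 6, 8 and 9 (exact p = 0.25 each) and 4416.9 to 4860.5 with 1 hashtag left out (exact p = 0.0625), each the smallest p those pairs allow.

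Genes below the count filter were not tested. All cells came from 1 gene expression library, so hashtags share its free RNA.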
